A study of Mus musculus with 9 samples.

Results

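The milk protein genes were taken as 10 genes listed by symbol: the caseins Csn1s1, Csn2, Csn1s2a, Csn1s2b and Csn3, the whey protein genes Wap, Lalba and Glycam1, and the milk fat globule genes Btn1a1 and Xdh. All 10 were found among the 18484 genes counted in each tumour, and each had 1 row. RNA was sequenced from 9 mammary tumours of BlgCre-NeuKI mice, with 1 library per tumour. In these mice an activated rat Neu sequence (NeuNT) sits in the endogenous Erbb2 locus and is switched on by CRE, which the beta-lactoglobulin promoter directs primarily to luminal ER-negative cells, on a mixed strain background. The virgin group was MS1213.1, MS1163.1 and MS1163.2, all adenocarcinomas of no special type, AC(NST), with high amplification of the Erbb2/Neu locus (high-amplified). Amplification labels follow the study's qPCR on genomic DNA. The parous group was MS1218.2 and MS1155.3 (AC(NST), high-amplified), MS1166.1 (AC(NST), not/low-amplified), the adenosquamous carcinomas (ASQC) MS1210.1 and MS1349.1 (not/low-amplified), and the sarcoma MS1156.1 (not/low-amplified). All 9 tumours share the CRE transgene and the NeuKI allele, and no normal mammary gland was analysed here. By droplet digital PCR in the study, MS1349.1 was among the few tumours without evidence of locus amplification. Nor did it show recombination of the NeoR cassette that blocks NeuKI, so activation of the allele was not shown for this sample. The labels give neither the number of pregnancies nor the time since the last, nor the age of each mouse. Virgin tumours were high-amplified without exception and ASQC tumours not/low-amplified, so parity, histotype and amplification cannot be fully told apart. The names MS1163.1 and MS1163.2 point to 1 mouse, and the study refers to MS1163 as 1 animal, whereas the series text counts as many mice as tumours.

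Milk protein genes are expressed by the secretory alveolar cells that form in pregnancy, under prolactin acting through JAK2 and STAT5 together with glucocorticoid signals. Alpha-s and beta caseins (Csn1s1, Csn2, Csn1s2a, Csn1s2b) are calcium-sensitive phosphoproteins, and kappa casein (Csn3) coats and stabilises the micelles that they form. The beta-lactoglobulin promoter used to drive CRE in these mice is itself a milk protein promoter, of sheep origin, and mice have no beta-lactoglobulin in their own milk.

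Reads counted on genes numbered between 12501225 and 23912429 per tumour. Values are normalized counts, which are the counts divided by 1 size factor per tumour, unless a share or a value per kilobase is named. Every measured level comes from bulk tissue, where fewer cells of a type and less RNA per cell cannot be told apart. The epithelial marker Epcam had between 7106 and 15685 normalized counts in the 8 epithelial tumours and 53.0 in the sarcoma, and Krt8 and Krt18 were likewise low in the sarcoma, at 176 and 134. MS1218.2, which fell short of the tumour purity given for the other tumours in the study's methods, had the highest fibroblast and endothelial sums of the 8 epithelial tumours: 373437 for 5 fibroblast genes, against 28674 to 113326 in the others, and 13238 for 4 endothelial genes, against 1554 to 5257.

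The 5 casein genes lie in a single stretch of chromosome 5 (GRCm38, 87666208 to 87932665, GENCODE M21) in the order Csn1s1, Csn2, Csn1s2a, Csn1s2b and Csn3, with Csn2 on the minus strand. Wap lies on chromosome 11 (6635482 to 6638637), Lalba on chromosome 15 (98480400 to 98482721), Glycam1 on the same chromosome (103562759 to 103565081), Btn1a1 on chromosome 13 (23456992 to 23465901) and Xdh on chromosome 17 (73883895 to 73950196), all on the minus strand. RefSeq promoter sequences (GRCm38.p6) were found for 6 of the 10 genes: Csn1s1, Csn2, Csn1s2a, Wap, Lalba and Glycam1. The 250 bases before the start site of 5 of these are printed because these genes exceeded every other epithelial tumour at least 67.5-fold in MS1349.1 (Lalba exceeded them 2.64-fold), with the letters of the GAS motif, to which STAT5 binds, in capitals where they occur.

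Csn1s1, chr5:87665958-87666207, plus strand: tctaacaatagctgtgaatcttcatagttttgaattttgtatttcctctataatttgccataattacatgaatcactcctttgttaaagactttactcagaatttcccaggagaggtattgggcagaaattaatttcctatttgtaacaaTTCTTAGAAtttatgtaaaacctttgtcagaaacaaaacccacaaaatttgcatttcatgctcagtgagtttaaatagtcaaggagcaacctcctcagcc

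Csn2, chr5:87699426-87699675, minus strand: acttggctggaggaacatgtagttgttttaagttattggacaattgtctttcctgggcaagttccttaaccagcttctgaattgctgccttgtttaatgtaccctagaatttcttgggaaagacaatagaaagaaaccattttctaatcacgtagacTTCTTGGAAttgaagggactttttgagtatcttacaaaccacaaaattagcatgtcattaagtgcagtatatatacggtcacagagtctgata

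Csn1s2a, chr5:87774200-87774449, plus strand: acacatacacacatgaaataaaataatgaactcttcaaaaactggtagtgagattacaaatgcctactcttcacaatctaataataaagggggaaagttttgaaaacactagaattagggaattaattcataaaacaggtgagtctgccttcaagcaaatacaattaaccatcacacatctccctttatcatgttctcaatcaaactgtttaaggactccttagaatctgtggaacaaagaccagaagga

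Glycam1, chr15:103565082-103565331, minus strand: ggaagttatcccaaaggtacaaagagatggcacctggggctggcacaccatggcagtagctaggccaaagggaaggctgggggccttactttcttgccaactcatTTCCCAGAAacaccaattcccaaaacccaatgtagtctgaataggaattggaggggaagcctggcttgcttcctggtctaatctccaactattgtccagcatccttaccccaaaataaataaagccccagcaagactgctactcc

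Wap, chr11:6638650-6638899, minus strand: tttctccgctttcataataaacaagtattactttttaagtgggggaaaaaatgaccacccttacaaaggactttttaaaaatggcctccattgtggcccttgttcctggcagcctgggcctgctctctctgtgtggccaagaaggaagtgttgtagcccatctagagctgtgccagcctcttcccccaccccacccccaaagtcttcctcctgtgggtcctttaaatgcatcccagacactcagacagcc

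The GAS letters (TTCNNNGAA, which read the same on both strands) occurred in 3 of the 6 promoters, at −100 to −92 from the start site in Csn1s1, at −93 to −85 in Csn2 and at −145 to −137 in Glycam1, against 7.02% of 32851 promoter windows of the same length. The letters TTGCNNAA, a form of the C/EBP motif, were found on neither strand of the 6 (9.56% of all windows), and TGTTCT, a form of the glucocorticoid receptor half-site, occurred in Csn1s2a alone, at −59 to −54 (16.1% of all windows). The motifs do not overlap in these windows. Wap, Lalba and Csn1s2a had no GAS letters in the window searched.

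MS1349.1 held far more milk protein RNA than any other tumour. The 10 genes took 9.44% of its counted reads (2257231 reads; Wilson 95% interval 9.43% to 9.45%). In the other parous epithelial tumours they took 0.807% in MS1218.2 (0.802% to 0.811%), 0.611% in MS1155.3 (0.607% to 0.615%), 0.0620% in MS1210.1 (0.0610% to 0.0630%) and 0.0360% in MS1166.1 (0.0351% to 0.0370%). The virgin tumours lay between these, at 0.748% in MS1163.1 (0.744% to 0.753%), 0.358% in MS1213.1 (0.355% to 0.361%) and 0.218% in MS1163.2 (0.216% to 0.221%). The sarcoma was lowest, at 0.00852% (0.00803% to 0.00903%). The intervals cover counting error only. The median share was 0.358% in virgin and 0.611% in parous epithelial tumours, and the range of the parous tumours enclosed that of the virgin tumours. By histotype, the ASQC tumours were the highest of the 8 and the second lowest, on either side of 5 of the 6 AC(NST) tumours (median 0.484%).

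**Figure D1:**
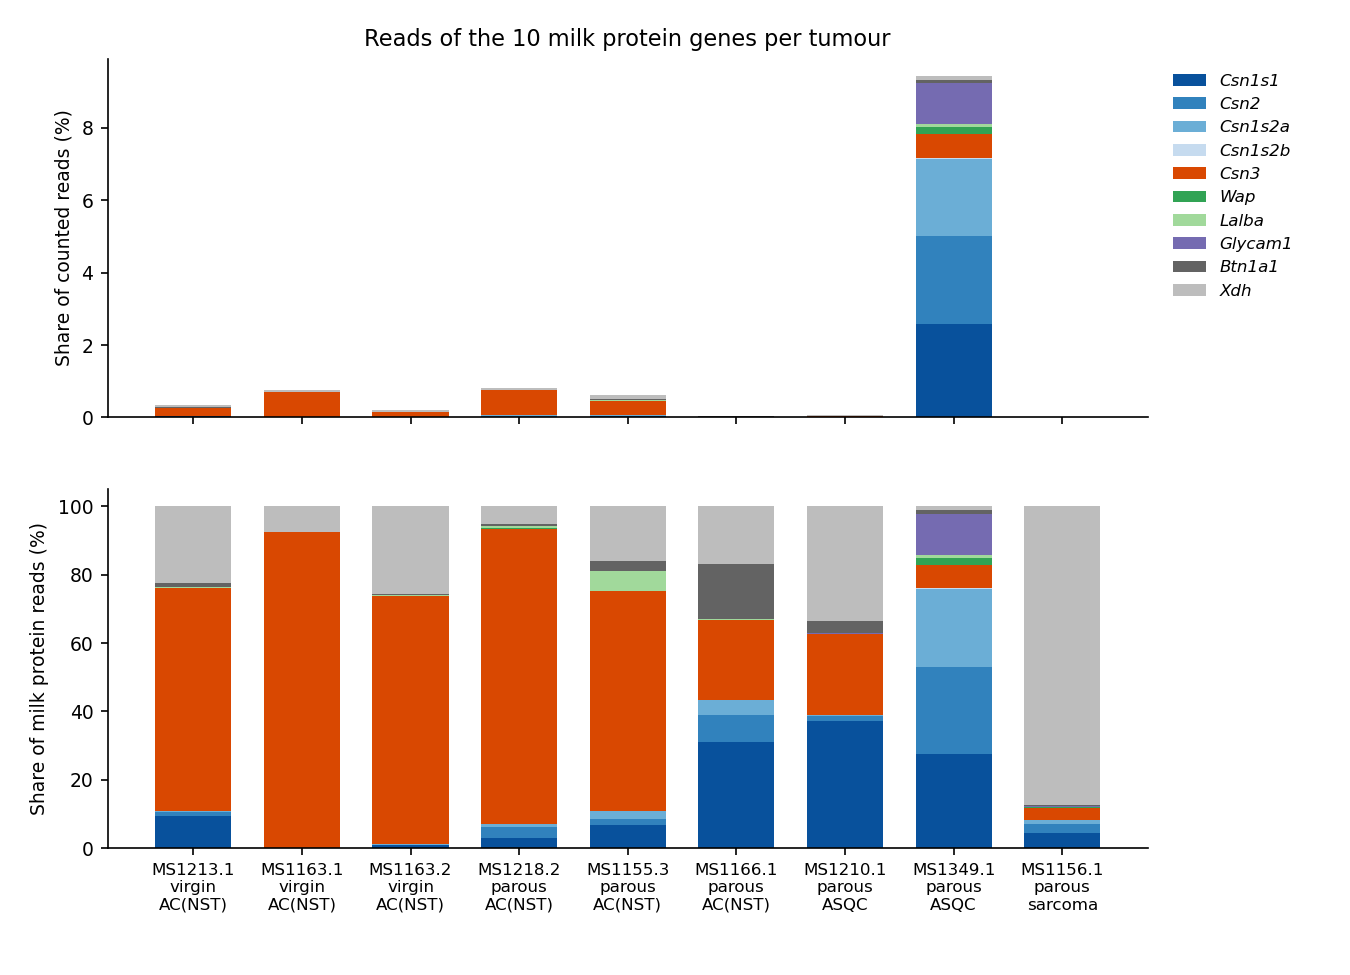
Stacked bars of the 10 milk protein genes in each of the 9 tumours, as a percentage of all counted reads (upper panel) and of the reads of the 10 genes (lower panel); colours are genes. MS1349.1 reaches 9.44% while no other tumour passes 0.807%, and Csn3 makes up 64.5% to 92.4% of the milk protein reads in the 5 high-amplified tumours.

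The makeup of these reads split the tumours. Csn3 made up 65.2%, 92.4% and 72.6% of the milk protein reads in the virgin tumours MS1213.1, MS1163.1 and MS1163.2, and 86.4% and 64.5% in the parous high-amplified tumours MS1218.2 and MS1155.3. It made up 23.1% in MS1166.1, 23.8% in MS1210.1 and 6.97% in MS1349.1. In MS1349.1, Csn1s1 (27.5%), Csn2 (25.5%), Csn1s2a (22.7%) and Glycam1 (11.9%) led instead. In the sarcoma 87.4% of the milk protein reads were Xdh, which many cell types express. Without Csn3 and Xdh, the share of the other 8 genes was 8.67% in MS1349.1, between 0.0216% and 0.120% in the other 4 parous epithelial tumours and between 0.00131% and 0.0445% in the virgin tumours.

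**Figure D2:**
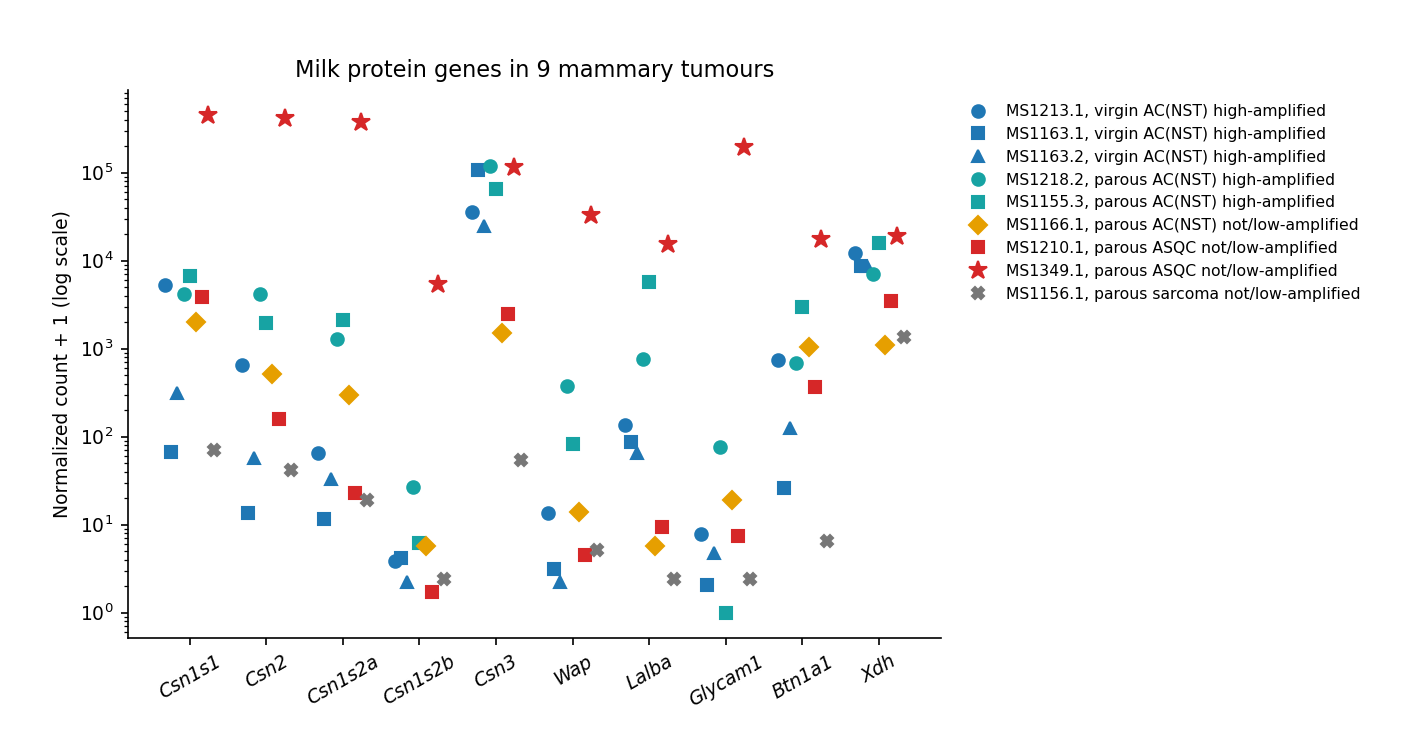
Normalized count plus 1 (log axis) of each of the 10 milk protein genes; each point is a tumour, coloured by group. MS1349.1 (star) lies above the other epithelial tumours for every gene except Csn3, where MS1218.2 reaches 118257 and MS1349.1 114921.

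Csn1s1 encodes an alpha-s1 casein. Its normalized counts in the virgin tumours were 5251 in MS1213.1, 65.1 in MS1163.1 and 309 in MS1163.2. In the parous epithelial tumours they were 4185 in MS1218.2, 6715 in MS1155.3, 2030 in MS1166.1, 3832 in MS1210.1 and 453056 in MS1349.1. MS1213.1 fell within the range of the parous tumours, whereas MS1163.1 and MS1163.2, which share a mouse number, were below all of them. Csn2, the gene of beta casein, had 645, 12.6 and 55.9 in the virgin tumours MS1213.1, MS1163.1 and MS1163.2. In the parous tumours it had 4146 in MS1218.2, 1979 in MS1155.3, 511 in MS1166.1, 158 in MS1210.1 and 420672 in MS1349.1. MS1213.1 was above MS1166.1 and MS1210.1, so the parity groups overlapped for this gene as well.

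Csn1s2a and Csn1s2b encode alpha-s2 caseins. Csn1s2a had 63.6 (MS1213.1), 10.5 (MS1163.1) and 32.3 (MS1163.2) normalized counts in the virgin tumours. It had 1298 in MS1218.2, 2106 in MS1155.3, 296 in MS1166.1, 21.8 in MS1210.1 and 374422 in MS1349.1. The ASQC tumour MS1210.1 alone among the parous epithelial tumours lay within the virgin range. Csn1s2b was at 5444 in MS1349.1 and at 25.9 in MS1218.2, and had between 0.703 and 5.15 in the 6 other epithelial tumours, which are 1 to 4 reads. It was the 1 milk protein gene with too few reads to enter the test across genes.

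Csn3, the kappa casein gene, followed another order. The virgin tumours MS1213.1, MS1163.1 and MS1163.2 had 35996, 108442 and 24620 normalized counts. The parous tumours had 118257 in MS1218.2, 64614 in MS1155.3, 1513 in MS1166.1, 2463 in MS1210.1 and 114921 in MS1349.1. All 5 high-amplified tumours were thus at 24620 or more, MS1166.1 and MS1210.1 were at 2463 or less, and MS1349.1 lay among the high-amplified tumours. The ratio of Csn3 to the sum of the 4 calcium-sensitive caseins was 1188 in MS1163.1 and 61.7 in MS1163.2, and lay between 5.98 and 12.2 in the high-amplified tumours MS1155.3, MS1213.1 and MS1218.2. It was 0.614 in MS1210.1, 0.532 in MS1166.1 and 0.0917 in MS1349.1. Every high-amplified tumour therefore had more Csn3 than calcium-sensitive casein counts, and every not/low-amplified epithelial tumour had fewer. This ratio was looked at after the values were seen, and it was not tested.

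**Figure D3:**
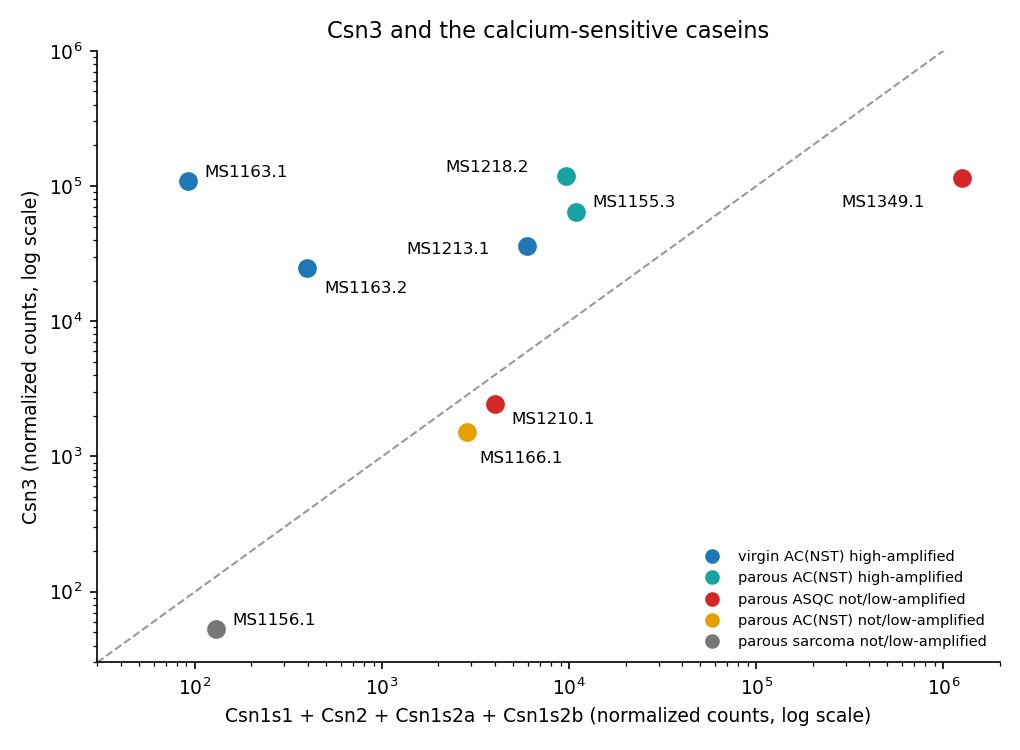
Csn3 against the sum of Csn1s1, Csn2, Csn1s2a and Csn1s2b in each tumour (normalized counts, both axes log), coloured by group; the dashed line marks equal values. The 5 high-amplified tumours lie above the line, with ratios of 5.98 to 1188, and the 3 not/low-amplified epithelial tumours and the sarcoma below it, with ratios of 0.0917 to 0.614.

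To set genes side by side, values were divided by the length of a single annotated transcript per gene, the first by name. The annotated exons of a gene together can be longer (6247 against 1411 bases for Csn1s1), so the order between genes depends on this choice. MS1349.1 had 406980 normalized counts per kilobase for Csn1s2a, 376609 for Csn2, 321088 for Csn1s1, 312429 for Glycam1 and 115965 for Csn3. Wap followed with 59333, Lalba with 19780, Csn1s2b with 6721, Btn1a1 with 5088 and Xdh with 4143. On the same scale Csn3 was the highest milk protein gene in each of the 5 high-amplified tumours, at 24844 to 119331 per kilobase. In MS1166.1 Csn3 (1527) and Csn1s1 (1439) were close, and in MS1210.1 Csn1s1 was at 2716 and Csn3 at 2485.

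Wap encodes whey acidic protein, a major whey protein of the mouse. Its normalized counts were 12.5, 2.10 and 1.24 in the virgin tumours MS1213.1, MS1163.1 and MS1163.2. In the parous tumours they were 376 in MS1218.2, 82.4 in MS1155.3, 13.1 in MS1166.1, 3.52 in MS1210.1 and 32692 in MS1349.1. Outside MS1349.1 and the parous high-amplified pair, Wap was thus at 13.1 or less. Lalba encodes alpha-lactalbumin, the regulatory subunit of lactose synthase. It had 134, 85.0 and 63.4 in the virgin tumours, in the same order, and 757 in MS1218.2, 5787 in MS1155.3, 4.76 in MS1166.1, 8.44 in MS1210.1 and 15251 in MS1349.1. MS1166.1 and MS1210.1 were below all virgin tumours, and the 3 other parous epithelial tumours were above them.

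Glycam1 encodes a mucin-like glycoprotein secreted into milk, which is also made by high endothelial venules of lymph nodes. It had 6.74, 1.05 and 3.73 normalized counts in MS1213.1, MS1163.1 and MS1163.2, 75.9 in MS1218.2, no reads in MS1155.3 (which allows up to 2.36e-05% of that library), 17.8 in MS1166.1 and 6.33 in MS1210.1. In MS1349.1 it had 196206, from 268553 reads. For every 100 reads of Csn1s1, MS1349.1 had 43.3 reads of Glycam1, and the other tumours had between 0 and 2. The markers of high endothelial venules and lymphocytes (8 genes: summed normalized count 75.3 in MS1349.1 and 5.25 to 46.3 in the other epithelial tumours) were also highest there as a sum. Of the 8, 6 (75%) were more than 2-fold above the median of the other epithelial tumours, at low levels. The share was 9.42% over the 14007 genes with enough reads to be tested, and of the 8 Cd3e alone was among these. The ratios were taken after adding 1 to each normalized count, so a few reads can give such a ratio. Ccl21a had 34.3 in MS1349.1 against at most 3.85 in the other epithelial tumours and 13.95 in the sarcoma. Chst4 had 2.19 and no reads in any other tumour, and Madcam1 had 0.731 against at most 2.10. The part of these cells in the Glycam1 value was not tested.

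Btn1a1 encodes butyrophilin, a protein of the milk fat globule membrane, and Xdh encodes xanthine dehydrogenase, which also takes part in fat globule secretion. Btn1a1 had 748, 25.2 and 126 normalized counts in the virgin tumours MS1213.1, MS1163.1 and MS1163.2. In the parous tumours it had 689 in MS1218.2, 3004 in MS1155.3, 1042 in MS1166.1, 365 in MS1210.1 and 17418 in MS1349.1, so that only MS1213.1 among the virgin tumours reached the parous range. Xdh varied least of the 10 genes. Its normalized counts were 12333, 8679 and 8705 in the virgin tumours, 7030 in MS1218.2, 15908 in MS1155.3, 1103 in MS1166.1, 3470 in MS1210.1 and 19059 in MS1349.1. As for Csn3, the lowest epithelial tumours were MS1166.1 and MS1210.1.

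By parity, no milk protein gene was called (adjusted p under 0.05 and fold change over 2 by edgeR's quasi-likelihood test with Benjamini-Hochberg adjustment over 14007 genes). This test called 0% of all genes by parity. Of the 9 tested, 6 had an unadjusted p under 0.05, all higher in parous tumours, against 14.2% of all genes. Glycam1 was among the 6, and all 6 were highest in the same tumour, MS1349.1, so they are not independent results. The largest fitted difference was that of Glycam1 (log2 fold change 13.27, standard error 5.08, edgeR adjusted p = 0.328). Glycam1 passed the filter of 10 reads in 3 tumours through parous tumours alone, so its direction by parity is no support. Csn1s2a differed by 11.05 (standard error 3.77, edgeR adjusted p = 0.307) and Wap by 10.21 (standard error 3.63, edgeR adjusted p = 0.312). Csn3 and Xdh stood at 0.10 (standard error 1.27) and −0.08 (standard error 0.77). The median log2 fold change of the 9 was 5.64, against 0.10 for all genes. DESeq2 called Btn1a1 alone and gave no adjusted p for 6 of the 10 (3.57% of all genes were called by it), and limma called none. No milk protein gene separated the virgin from the parous epithelial tumours without overlap, where 5.35% of all genes were higher and 3.89% lower in every parous tumour.

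The size of the parity differences depended on MS1349.1 and on MS1213.1. Without MS1349.1, the log2 fold change of Csn1s1 was 1.14 in place of 5.64, that of Csn2 2.82 in place of 8.48, that of Csn1s2a 4.70, that of Wap 4.42 and that of Btn1a1 2.07 in place of 3.90. Lalba, at 4.12 in place of 5.53, moved least of the 6 genes with larger differences that could be tested without MS1349.1. Leaving out the virgin tumour MS1213.1 raised the log2 fold change to 8.997 for Csn1s1, 11.31 for Csn2 and 5.93 for Btn1a1. With amplification as a covariate, the log2 fold change by parity was 5.58 for Csn1s2a, 5.35 for Wap, 5.12 for Lalba, 3.67 for Csn2, 2.61 for Btn1a1 and 1.53 for Csn1s1, and none was called. Glycam1, which passed the filter through parous tumours alone, stood at 3.28 in that fit and was not called either. Csn1s2b was tested by itself, with a mean log2(normalized count + 1) of 4.62 in parous and 1.73 in virgin tumours (two-sided exact permutation test, p = 0.357, smallest possible p = 0.0179).

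Within the high-amplified AC(NST) tumours, where the qPCR amplification label and histotype are the same, the parous tumours MS1218.2 and MS1155.3 were both above all 3 virgin tumours for Csn2, Csn1s2a, Wap and Lalba. These are 4 of the 9 milk protein genes tested, and 11.7% of all genes were higher in the parous tumours in this way. In a fit of these 5 tumours alone, the log2 fold change was 5.59 for Csn1s2a (standard error 0.71, edgeR adjusted p = 0.479), 5.40 for Wap (standard error 1.08, edgeR adjusted p = 0.727), 5.12 for Lalba (standard error 0.82, edgeR adjusted p = 0.727) and 3.71 for Csn2 (standard error 1.30, edgeR adjusted p = 0.727). None of these was called, and over all alternatives the adjusted p of these 4 genes by parity lay between 0.0623 and 0.750 (edgeR, DESeq2 or limma). Csn1s1 (1.55, standard error 1.38), Btn1a1 (2.62, standard error 1.17), Csn3 (0.73, standard error 0.88) and Xdh (0.23, standard error 0.54) overlapped between virgin and parous tumours. In the study, MS1218.2 and the virgin tumour MS1213.1 scored high by qPCR but low by droplet digital PCR. Exome copy numbers sided with qPCR for MS1213.1 and with the droplet result for MS1218.2, so amplification may differ within these 5 tumours. MS1218.2 is the tumour with the high fibroblast and endothelial sums, and their part in these values was not tested. With 2 parous tumours, 1 mouse number behind 2 of the 3 virgin tumours and no further tumours, the part of the single mouse was not tested.

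**Figure D4:**
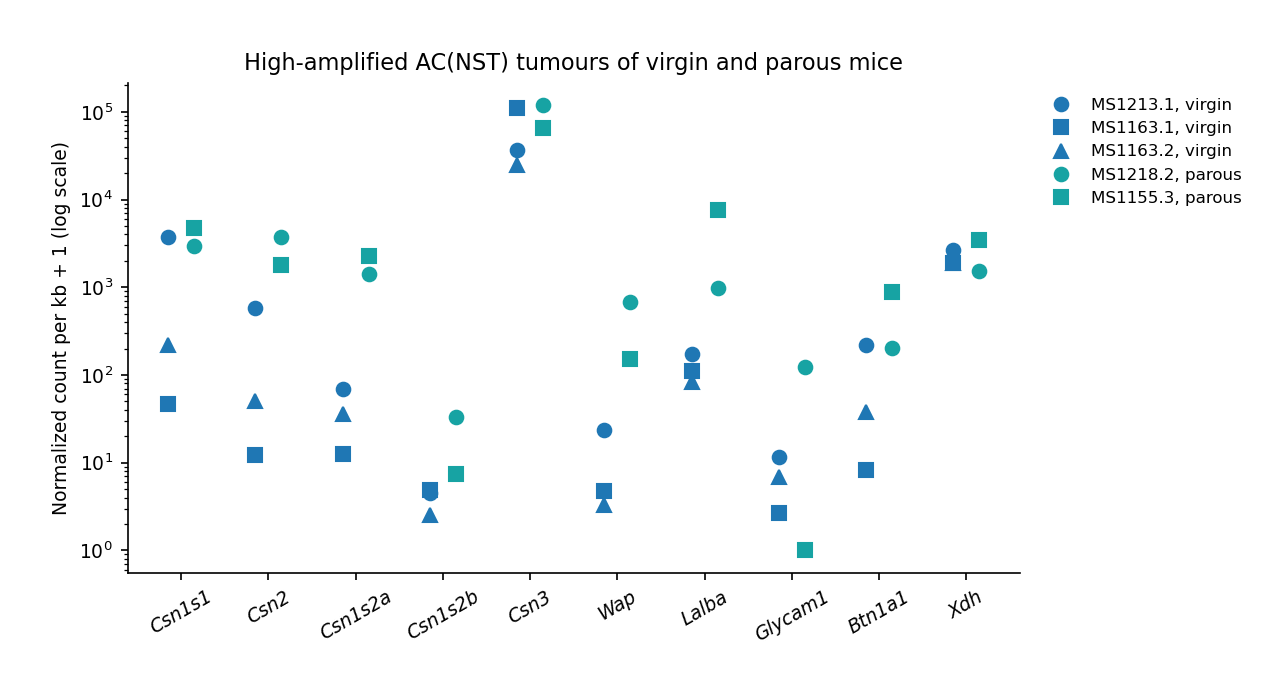
Normalized count per kilobase plus 1 (log axis) of the 10 genes in the 5 high-amplified AC(NST) tumours; each point is a tumour, virgin on the left and parous on the right of each gene. For Csn2, Csn1s2a, Wap and Lalba both parous tumours lie above the 3 virgin tumours, and for Csn3 and Xdh the values overlap.

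By histotype, no milk protein gene was called by edgeR's quasi-likelihood test, which called 0.236% of all genes. An unadjusted p under 0.05 was found for 6 of the 9, all higher in ASQC, against 8.72% of all genes, and the median log2 fold change was 6.21 against −0.08 for all genes. Glycam1 had the smallest adjusted p (log2 fold change 12.42, standard error 2.40, edgeR adjusted p = 0.110), followed by Csn1s1 (6.21, standard error 1.56, edgeR adjusted p = 0.240). Glycam1 passed the filter only with the ASQC tumour MS1349.1 counted, so its direction by histotype is no support. DESeq2 called Csn1s1 and Csn1s2b (3.44% of all genes), edgeR without the count filter called Csn1s2b and Glycam1 (0.931% of all genes), edgeR without MS1210.1 called Glycam1 (0.0796% of all genes), and limma called none. MS1349.1 and MS1210.1, the ASQC tumours, differed widely. In MS1210.1 all milk protein genes except Csn1s1 and Glycam1 were below the median of the 6 AC(NST) tumours. Without MS1349.1 the direction turned for Csn2 (−2.96 in place of 7.43), Csn1s2a (−4.86 in place of 8.21), Wap (−4.50 in place of 7.65), Lalba (−7.07 in place of 2.75), Btn1a1 (−1.37 in place of 3.25) and Xdh (−1.38 in place of 0.33). No milk protein gene separated the histotypes without overlap (5.3% of all genes were higher and 4.98% lower in both ASQC tumours). Csn1s2b gave p = 0.25 (two-sided exact permutation test, smallest possible p = 0.0357).

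By amplification status, no milk protein gene was called by edgeR's quasi-likelihood test (0.921% of all genes) or by limma, and DESeq2 called none of those for which it gave an adjusted p (10.8% of all genes). Of the 9, 5 had an unadjusted p under 0.05, all lower in the high-amplified tumours, against 22.8% of all genes. The median log2 fold change was −5.53, against 0.02 for all genes, and no gene separated the groups (7.55% of all genes were higher and 8.04% lower in every high-amplified tumour). Glycam1 fell by 11.82 on the log2 scale (standard error 3.09, edgeR adjusted p = 0.0826), and this was not past the threshold. Here too Glycam1 passed the filter only with MS1349.1 counted. Without MS1349.1 the fitted direction turned for Csn1s1, Csn2, Csn1s2a, Wap, Lalba and Btn1a1, and the log2 fold change of Csn3 was 5.17 (standard error 0.97) in place of 0.83 and was not called. Csn1s2b gave p = 0.464 (two-sided exact permutation test).

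MS1349.1 was set beside the other 7 epithelial tumours as a description of that tumour, for which there is no second sample. Its value exceeded the next highest tumour 2585-fold for Glycam1, 210-fold for Csn1s2b, 178-fold for Csn1s2a, 101-fold for Csn2, 87.0-fold for Wap and 67.5-fold for Csn1s1. It exceeded it 5.80-fold for Btn1a1, 2.64-fold for Lalba and 1.20-fold for Xdh, and Csn3 was at 0.972 of the level in MS1218.2. Of the 9 genes past the filter, 8 were highest in MS1349.1, against 8.16% of all 14007 genes. Of the same 9, 5 were more than 10 times above every other epithelial tumour, against 0.164% (23 genes). Both counts hold Glycam1, which passed the filter only with MS1349.1 counted, so its inclusion and its rank are no support. Ranked by the ratio to the median of the other 7, Glycam1 had rank 1, Csn1s2a rank 2, Wap rank 4 and Csn2 rank 6 of all genes, Lalba rank 18, Csn1s1 rank 28 and Btn1a1 rank 100, whereas Csn3 had rank 664 and Xdh rank 1131.

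Other genes of milk secretion were also high in MS1349.1. Of 24 such genes, 17 (70.8%) were more than 2-fold above the median of the other 7 epithelial tumours, with a median log2 ratio of 1.86. The share was 9.42% over the 14007 genes past the filter, which 22 of the 24 passed. Fabp3 and Olah did not pass it and were high in MS1349.1 alone among the epithelial tumours. They are counted in the 17, so their part in that count is no support. Genes named in the next sentences were chosen after their values were seen. Cel, a lipase of milk, had 16547 normalized counts and at most 514 in the other tumours, and Fabp3, a fatty acid binding protein, had 3399 in MS1349.1 and at most 19.4 in the other epithelial tumours. Olah, which ends fatty acid chains at medium length in milk fat synthesis, had 187 against at most 7.70, and Pigr, the receptor that carries immunoglobulin A into milk, had 10567 against at most 2537. Plin2, a coat protein of lipid droplets, had 17301 against 10952 in MS1218.2. Ltf (lactoferrin) was above the median as well, with 201385 in MS1349.1, though the virgin tumour MS1213.1 had 204385. The 7 genes that were not more than 2-fold above the median were Cidea (log2 ratio 0.94), Trf (0.84), Wfdc18 (0.71), Mfge8 (0.71), Slc2a1 (0.43), Lcn2 (−0.36) and the water channel gene Aqp5 (−6.01). Aqp5 had 97.2 normalized counts in MS1349.1 against 485 to 17976 in the other epithelial tumours.

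By parity, edgeR called 0 of the 22 milk secretion genes tested, and 5 had an unadjusted p under 0.05, against 14.2% of all genes (median log2 fold change 0.86, against 0.10). DESeq2 called 4 of the 20 to which it gave an adjusted p, Muc1, Slc2a1, Wfdc18 and Mfge8, all higher in parous tumours, against 3.57% of all genes, and limma called 0. The smallest p values were those of the glucose transporter Slc2a1 (1.80 on the log2 scale, standard error 0.44, edgeR adjusted p = 0.278) and of Wfdc18 (1.50, standard error 0.45, edgeR adjusted p = 0.297). By histotype and by amplification edgeR and limma called 0, and 3 of 22 had an unadjusted p under 0.05 in each edgeR fit, against 8.72% of all genes by histotype and 22.8% by amplification. DESeq2 called Fabp3 and Olah higher and Aqp5 lower in ASQC (3.44% of all genes were called), and Aqp5 higher and Muc1 lower in the high-amplified tumours (10.8% of all genes).

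Regulators of the alveolar programme were mixed in MS1349.1. Over 22 genes of prolactin signalling and alveolar differentiation, the median log2 ratio to the other 7 epithelial tumours was 0.04, and 5 (22.7%) were more than 2-fold above their median, against 9.42% of all genes. These were Pgr, Stat5a, Elf5, Tnfsf11 and Esr1, while Socs2 and Prlr were more than 2-fold below it. Elf5, a transcription factor of alveolar cells, was highest in MS1349.1, at 10259 against 2241 to 5092. Stat5a had 6046 in MS1349.1 and 6380 in MS1213.1, with 295 to 4304 in the others, and Prlr, the prolactin receptor, had 1557, between 769 in MS1218.2 and 6551 in MS1163.1. The STAT5 targets Cish and Socs2 were at 465 and 277, within ranges of 253 to 750 and 243 to 5677. EdgeR called 0 of the 22 in any of the 3 comparisons; 2 had an unadjusted p under 0.05 by parity, Socs3 (log2 fold change 1.11, standard error 0.43) and Tnfsf11 (1.99, standard error 0.78), 2 by histotype and 3 by amplification, where the shares of all genes were 14.2%, 8.72% and 22.8%. Limma called 0 in each comparison, and DESeq2 called 0 by parity and Socs2 alone by histotype (lower in ASQC) and by amplification (higher in high-amplified tumours). These genes, apart from Socs3 and Tnfsf11, were chosen after their values were seen.

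**Figure D5:**
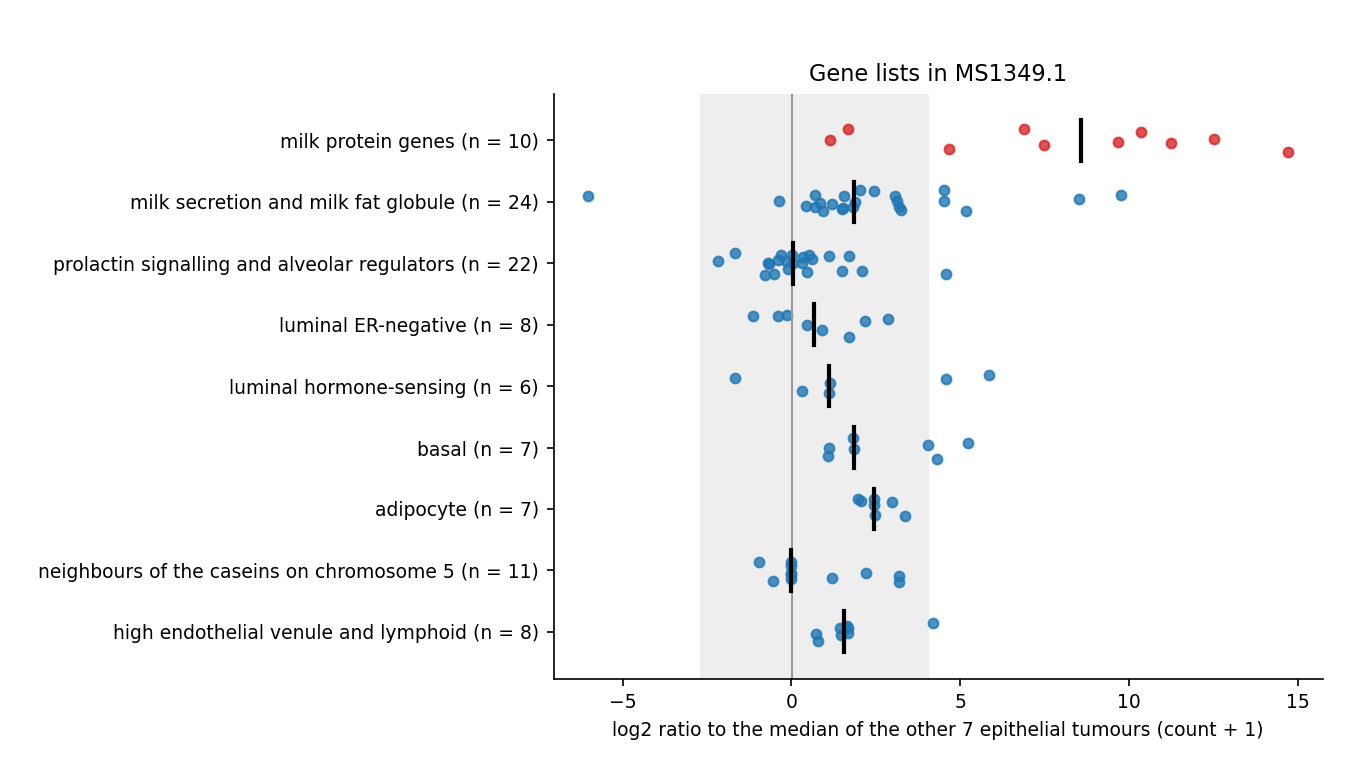
Log2 ratio of MS1349.1 to the median of the other 7 epithelial tumours (normalized count plus 1) for the genes of 9 lists; each point is a gene, black bars are list medians, and the grey band holds the central 98% of the 14007 genes tested. The lists also hold genes that did not pass the filter. The milk protein genes have a median of 8.58 and milk secretion genes 1.86, whereas prolactin signalling and alveolar regulators have 0.04.

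Markers of other cells were read in the same way, where 9.42% of all genes tested were more than 2-fold above the median in MS1349.1. The 7 adipocyte genes summed to 2448 in MS1349.1, 3058 in the virgin tumour MS1163.2 and 167 to 927 in the other 6 epithelial tumours, and all 7 were more than 2-fold above the median in MS1349.1. In MS1163.2, where they were higher still, the milk protein share was 0.218%. The 4 epidermal genes summed to 335 in MS1349.1 and 102 in MS1210.1, both ASQC, and to 9.26 to 23.2 in AC(NST) tumours. All 7 basal genes were more than 2-fold above the median in MS1349.1 (sum 11801), though MS1210.1, where the milk protein share was 0.0620%, reached 57207. The luminal hormone-sensing list had 4 of 6 genes above 2-fold, among them Pgr, at 462 against at most 109 in the other epithelial tumours, while its sum (3367) lay within the range of the other tumours (1386 to 7233). The luminal ER-negative list had 3 of 8 above 2-fold and a sum of 89587, against 39858 to 141234. The part of these cells in the milk protein values was not tested.

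In the tests across genes, Aldh1a3, a retinal-oxidising enzyme found in luminal progenitors, was the 1 gene of the marker lists that edgeR or limma called. It was lower in the high-amplified tumours (−2.95 on the log2 scale with a standard error of 0.43, adjusted p = 0.0283 by edgeR), with 222 to 833 normalized counts there and 2913 to 4660 in the not/low-amplified epithelial tumours. The other marker lists had 0 genes called by edgeR in any comparison. By parity, DESeq2 called Aldh1a3, Krt8 and Krt5 higher and Dcpp1 lower in parous tumours (3.57% of all genes were called). It called Krt1, Ivl and Krt10 higher and Ckm and Dcpp1 lower in ASQC, and Krt19, Aldh1a3, Krt8, Krt1, Ivl and Krt10 lower and Dcpp1 higher in the high-amplified tumours (3.44% and 10.8% of all genes). In edgeR's fit by parity, an unadjusted p under 0.05 was found in 3 of 8 luminal ER-negative, 0 of 6 luminal hormone-sensing, 2 of 7 basal, 0 of 7 adipocyte, 1 of 2 salivary gland and 1 of 2 skeletal muscle genes, and in 0 of the 5 fibroblast, 4 endothelial, 1 epidermal and 1 lymphoid genes tested, against 14.2% of all genes.

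Genes between the caseins were measured at low levels. The casein stretch of chromosome 5 holds 2 other genes among those counted, Prr27 and Odam, both between Csn1s2b and Csn3. In MS1349.1 Odam had 30.7 normalized counts, against 33.6 in MS1163.1, and Prr27 had 3.65 and no reads in any other tumour. Of 14 listed neighbours of the region 11 were in the files, and 1 of these (Sult1d1) had enough reads to be tested, and it was not called in any comparison (0 of 1 at an unadjusted p under 0.05).

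The 5 genes with a pattern most like the mean log2 level of Csn1s1, Csn2, Csn1s2a and Csn3 over the 9 tumours were Cmtm6 (Pearson r = 0.963), Plin2 (0.932), Slc52a2 (0.925), Gzmb (0.914) and 2210407C18Rik (0.913), out of 13998 genes. The points share their libraries and their scaling. Without MS1349.1 and the sarcoma, over 7 tumours, r was 0.846 for Cmtm6, 0.870 for Plin2, 0.690 for Slc52a2, 0.627 for Gzmb and 0.589 for 2210407C18Rik. Cmtm6, which encodes a membrane protein that stabilises PD-L1, ranged from 1456 in the sarcoma to 6733 in MS1349.1.

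The sarcoma held few reads of these genes other than Xdh: 972 reads of Xdh, 50 of Csn1s1, 38 of Csn3, 29 of Csn2, 13 of Csn1s2a and 4 of Btn1a1. Wap (3 reads), Csn1s2b, Lalba and Glycam1 (1 read each) were at or under 3 reads there. Xdh, at 1356 normalized counts, was above the lowest epithelial tumour, MS1166.1 (1103), and the other 9 genes were at 69.8 or less.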

How the data were processed

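Total RNA of snap frozen tumours was depleted of ribosomal RNA and sequenced in pairs of 76 cycles from strand-specific libraries. The authors aligned reads to mouse build 38 with STAR (at most 3 mismatches, unique positions alone) and counted them per gene with HTSeq-count; the strand option of the counting is not given in the sources used here, so reads where genes overlap are uncertain. The deposited counts are whole reads per gene in all 9 tumours. The deposited signal values of the 8 epithelial tumours are these counts divided by 1 size factor per tumour (0.776 to 1.42); multiplied back, 100% were whole within 0.01. The sarcoma was scaled here by its median-of-ratios factor (0.717) to the same reference, which the sarcoma did not enter. No sequencing batch is named.

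Symbols were taken from the deposited row names, and 18420 of 18484 genes were placed through GENCODE M21; 64 had no match. EdgeR 4.0.16 (TMM, glmQLFit, glmQLFTest, Benjamini-Hochberg over all genes) was run on the counts of the 14007 genes that reached 10 counts in 3 or more of the 8 epithelial tumours, without covariates, under R 4.3.3. A gene was called where the adjusted p-value lay below 0.05 and the log2 fold change exceeded 1 in size. Standard errors were derived from the fold change and the F statistic. Csn1s2b, below the filter, was tested on log2(normalized count + 1) by exact permutation of the tumours. Each tumour was a replicate, so p-values measure the spread between tumours. Depth was 12501225 to 23912429 counts, at which 3 counts are 1.25e-05% to 2.4e-05% of a library. Alternatives were DESeq2 1.42.0, limma 3.58.1 on log2 of the signal values plus 1, no filter, other scalings, subsets, covariates, the sarcoma included, the tumours of the same mouse number summed, and each tumour left out. The fits were also run on simulated counts with a common dispersion and no outlying tumour. That setting is unlike the milk protein genes, so it does not bear on their results. Figures used matplotlib 3.10.9 under Python 3.11.15.

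The 10 genes were described in every tumour. From each other list, called genes were named, or otherwise the 2 genes with the smallest unadjusted p by parity where values were needed; other names were chosen after their values were seen. The members and lists were chosen with earlier results of these data known. Lists were milk secretion, prolactin signalling and alveolar regulators, casein neighbours, and markers of luminal, basal, adipocyte, high endothelial venule and lymphoid, salivary gland, skeletal muscle, epidermal, fibroblast and endothelial cells. The authors' own comparisons were not used.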

Additional observations from a re-analysis of the deposited data

Results flagged for a closer look

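In groups of 4 to 10 tumours, 1 tumour stood apart from the rest by Dixon's test in 17 of 30 tests of a gene in a group. The test assumes normally distributed values and was run on normalized counts without a log scale. Such counts are skewed, so the rate by chance is not known and 17 of 30 serves as a description. In the parous epithelial tumours the tumour was MS1349.1 in all 7: Csn1s1 (453056 normalized counts), Csn2 (420672), Csn1s2a (374422), Csn1s2b (5444), Wap (32692), Glycam1 (196206) and Btn1a1 (17418). In the high-amplified tumours, and again in the AC(NST) tumours, which include them, MS1218.2 stood apart for Csn1s2b (25.9), Wap (376) and Glycam1 (75.9), and MS1155.3 for Lalba (5787) and Btn1a1 (3004). The parous epithelial group holds parous tumours alone, and the high-amplified and AC(NST) groups share tumours, so these tests are not independent.

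The sarcoma was left out of the comparisons, except for 1 alternative by parity. Its counts above 3 reads were 972 for Xdh, 50 for Csn1s1, 38 for Csn3, 29 for Csn2, 13 for Csn1s2a and 4 for Btn1a1. There is no second sarcoma.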

How the results depend on the processing

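Over all alternatives run, 0 milk protein genes were called by amplification. By parity DESeq2 called 1 (Btn1a1). By histotype DESeq2 called 2 (Csn1s1 and Csn1s2b) and edgeR without a count filter called 2 (Csn1s2b and Glycam1). With each tumour left out in turn the count was 0 to 0 by parity and amplification and 0 to 1 by histotype, where Glycam1 was called without MS1210.1, which leaves ASQC with 1 tumour that is assumed to vary like the others. The cause of these changes was not tested. Without the most abundant milk protein gene of each library (Csn3 in all 3 virgin tumours), the median summed share was 0.0599% in virgin tumours in place of 0.358%, and 0.110% in parous epithelial tumours in place of 0.611%.

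The direction turned in small differences: Csn3 by parity was −1.19 with limma and −0.16 with the sarcoma included, Xdh by parity was 0.23 in high-amplified tumours alone and 0.22 with amplification as a covariate, and Csn3 by histotype was 0.0207 with the 2 tumours of the same mouse number summed. By amplification it also turned in AC(NST) tumours alone, for Csn1s1 (0.68), Csn2 (1.42), Csn1s2a (1.23), Wap (2.85) and Lalba (8.09), a fit with MS1166.1 as the 1 not/low-amplified tumour and without MS1349.1, and for Lalba with limma (1.76).

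With each tumour left out, the log2 fold change by parity ranged from −0.29 to 0.999 for Csn3 and from −0.52 to 0.20 for Xdh. By histotype it ranged from −2.96 to 8.38 for Csn2, −4.86 to 9.17 for Csn1s2a, −4.59 to 0.93 for Csn3, −4.50 to 9.54 for Wap, −7.07 to 5.19 for Lalba, −1.37 to 4.18 for Btn1a1 and −1.38 to 1.06 for Xdh. By amplification it ranged from −6.11 to 0.20 for Csn1s1, −7.70 to 2.08 for Csn2, −8.47 to 2.20 for Csn1s2a, −8.82 to 3.58 for Wap, −4.29 to 7.65 for Lalba, −3.97 to 0.43 for Btn1a1 and −0.10 to 2.22 for Xdh. Without MS1349.1 Glycam1 had too few reads to be tested. No paired analysis was possible because replicate numbers pair no tumours across the groups; MS1163.1 and MS1163.2, whose names point to 1 mouse, are in the same group.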
